A study of Mus musculus with 8 samples.

Results

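The 35 genes described here encode proteins of the cornified envelope and of the last steps of epidermal cornification. They were taken by symbol from a list based on protein function, which left out keratins and the Sprr, S100 and transglutaminase families. The rule used no measured value, but the list was drawn up with earlier results of these data known. All 35 were among the 23171 genes of the count table. RNA-seq libraries were made from the epidermis of imiquimod-treated mice, labelled as keratinocytes: 4 from mice in which Hnrnpu, the gene of the nuclear RNA-binding protein hnRNP-U, was knocked out in the epidermis (labelled hnrnpu-cKO, here cKO), and 4 from contrast mice (labelled WT). Imiquimod, a Toll-like receptor 7 agonist, gives psoriasis-like skin inflammation in mice, and every library of both genotypes came from treated skin. The sources used here name no strain, age, sex, Cre driver or deleted exons. The series title links hnRNP-U to TNF-α and psoriasis, and the question for these genes was how their levels in inflamed epidermis differed between cKO and WT.

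As keratinocytes leave the basal layer they pass through spinous and granular layers and die as flattened corneocytes. In the granular layer the plasma membrane is replaced by the cornified envelope, in which transglutaminases crosslink precursors such as involucrin, loricrin and the late cornified envelope (LCE) proteins, while filaggrin-type proteins bundle keratin and are later broken down. In human skin LCE1 genes are expressed in normal epidermis, whereas LCE3 genes are low there and are induced in psoriasis and after barrier injury.

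In cKO epidermis the clearest pattern among these genes lay in the Lce1 family. All 12 Lce1 genes had a higher fitted level in cKO than in WT, by 3.56-fold (Lce1f) to 9.16-fold (Lce1m), with a median log2 fold change of 2.28. The 6 Lce3 genes had log2 fold changes from -0.17 to 0.40, and the 5 genes expressed early in differentiation from -0.09 to 0.52. Flg2, Kprp, Crct1 and Lor, which are late genes outside Lce1, had log2 fold changes of 1.09 to 2.76. The remaining late genes outside Lce1 lay from -0.30 (Casp14) to 0.81 (Hrnr), and the median of all 12 late genes outside Lce1 was 0.55. No gene of the 35 passed edgeR's quasi-likelihood test at an adjusted p below 0.05, at which 1.32% of the 14004 genes tested were called (0.671% as higher in cKO and 0.65% as lower). At an unadjusted p below 0.05, 16 of the 35 were higher in cKO and 0 lower, against 9.87% of all tested genes that were higher. Of these 16, 12 were the Lce1 genes, and 4 were among the 23 genes outside Lce1. All 12 Lce1 genes were highest in cKO replicate 2 and, within cKO, lowest in replicate 4, so they are not 12 separate observations. DESeq2 called 6 of the 35 as higher (Lce1a2, Lce1e, Lce1g, Lce1h, Lce1m and Crct1), in a fit that called 4.1% of its genes as higher, and limma-voom, which called 0.507% of all genes as higher, called 0. The median log2 fold change was 0.58 over the 35 genes, 0.35 over the 23 outside Lce1, and 0.01 over all genes tested.

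**Figure D1:**
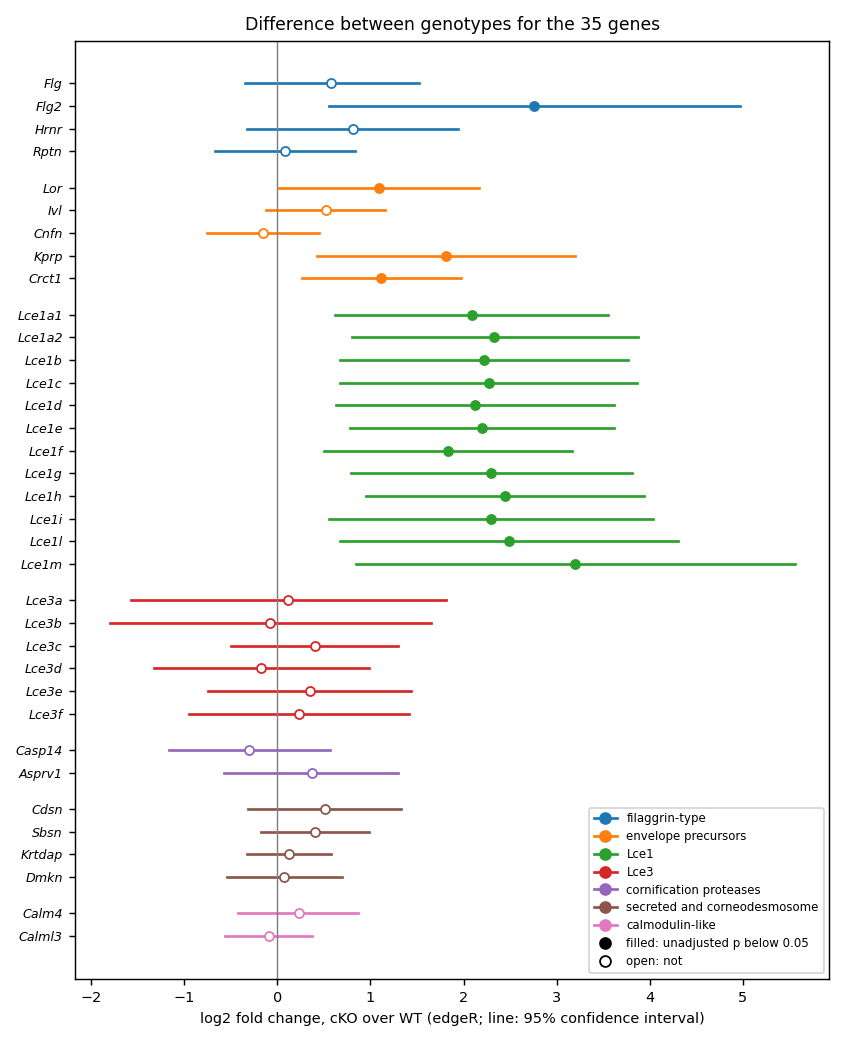
Fitted log2 fold change of each of the 35 genes, cKO over WT, with its 95% confidence interval, grouped by protein role. Filled points have an unadjusted p below 0.05. The 12 Lce1 genes lie between 1.83 and 3.20, and the 6 Lce3 genes lie between -0.17 and 0.40 with intervals that cross 0.

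The libraries held between 37158621 and 38865722 counted reads. The 4 libraries of a genotype came from mice counted separately in the series design, and no pair of libraries agreed within sampling noise. Hnrnpu measured 190, 373, 355 and 312 CPM (counts per 1e6 counts of the library, TMM-scaled) in cKO replicates 1 to 4, and 455, 424, 431 and 439 in WT replicates 1 to 4. Every cKO library lay below every WT library, and the log2 fold change was -0.51 (SE 0.19, edgeR adjusted p = 0.191). Without cKO replicate 1 the log2 fold change of Hnrnpu was -0.33. Counts over a whole gene also take reads from exons that were not deleted, and the source of the remaining reads was not tested. Summed markers of basal keratinocytes (6 genes, led by Krt14 and Krt5) ranged from 16200 to 27900 CPM in cKO and from 23900 to 35900 in WT, while summed markers of fibroblasts (6 genes), endothelium (4) and muscle (4) reached at most 9.92 CPM in any library.

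Libraries of one genotype differed widely in these genes. In WT, replicate 4 was the lowest library for 23 of the 24 late genes and for all 5 early genes. In cKO, replicate 4 was the lowest for 22 of the 24 late genes and all 5 early genes, and replicate 2 was the highest for 22 late and 4 early genes. The 35 genes together took 3.61%, 5.51%, 4.26% and 2.25% of the counts in cKO replicates 1 to 4 and 2.86%, 3.29%, 3.74% and 2.1% in WT replicates 1 to 4. The ranges of the 2 genotypes overlapped. In whole epidermis, fewer granular cells and less RNA of these genes per cell cannot be told apart.

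Since the 2 LCE families differed in their pattern across libraries, the DNA just before their transcription starts is shown for 5 members, with Flg2 and Lor for comparison. Each line is the 100 bases before the start on the gene's own strand, 5′ to 3′, from RefSeq on GRCm38.p6. In the 3 Lce1 lines the capitals mark the longest stretch that those 3 share (15 bases) and the letters TAAAAG, in the 2 Lce3 lines the longest stretch that those 2 share (18 bases) and TAAAAG, and in Flg2 and Lor the letters TGANTCA (N is any base, the core of a motif bound by AP-1 factors) and, in Lor, TATAAA.
Lce1h (chr3:92765066-92765165, minus strand): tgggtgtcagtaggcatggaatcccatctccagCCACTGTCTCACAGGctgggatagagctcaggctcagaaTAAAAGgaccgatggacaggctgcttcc
Lce1e (chr3:92709075-92709174, minus strand): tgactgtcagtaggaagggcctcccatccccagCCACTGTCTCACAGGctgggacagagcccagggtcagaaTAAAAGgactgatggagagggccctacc
Lce1a1 (chr3:92648308-92648407, minus strand): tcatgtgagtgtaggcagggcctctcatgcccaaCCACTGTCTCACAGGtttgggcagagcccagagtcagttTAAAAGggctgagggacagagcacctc
Lce3c (chr3:92944386-92944485, plus strand): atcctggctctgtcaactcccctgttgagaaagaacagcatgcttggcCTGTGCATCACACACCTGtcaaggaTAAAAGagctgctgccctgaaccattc
Lce3f (chr3:92992117-92992216, plus strand): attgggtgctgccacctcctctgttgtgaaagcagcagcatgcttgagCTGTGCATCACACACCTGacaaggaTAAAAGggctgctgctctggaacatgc
Flg2 (chr3:93197173-93197272, plus strand): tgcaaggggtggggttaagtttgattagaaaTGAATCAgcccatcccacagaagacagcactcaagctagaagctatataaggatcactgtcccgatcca
Lor (chr3:92083143-92083242, minus strand): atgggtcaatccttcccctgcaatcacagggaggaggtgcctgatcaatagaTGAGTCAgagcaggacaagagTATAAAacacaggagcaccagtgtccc

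RefSeq promoters were matched for 31 of the 35 genes, 11 of them Lce1 and 6 Lce3. Calml3, Crct1, Kprp and Lce1f had none in the table. TAAAAG on the gene's strand lay within the last 40 bases before the start in 10 of 11 Lce1 promoters (not Lce1b), in 5 of 6 Lce3 promoters (not Lce3a) and in 0 of the 14 others, against 1.65% of 32851 promoters of all genes. CCACTGTCTCACAGG, searched on both strands of the 250 bases before the start, was in 5 of 11 Lce1 promoters (Lce1a1, Lce1a2, Lce1b, Lce1e and Lce1h), in 0 of 6 Lce3 promoters and in 0.0152% of all promoters, and those 5 were the only ones of the 32851 that held it. CTGTGCATCACACACCTG, searched the same way, was in 3 of 6 Lce3 promoters (Lce3c, Lce3e and Lce3f), in 0 Lce1 promoters and in 0.00913% of all. These 2 stretches and TAAAAG were chosen after the sequences had been read, and the share of promoters with a stretch includes the genes it was taken from. TGANTCA on either strand of the 250 bases was in 0 of 11 Lce1 and 0 of 6 Lce3 promoters, in 8 of the 14 others (Lor, Ivl, Flg2, Flg, Rptn, Sbsn, Dmkn and Krtdap) and in 6.75% of all. Over the 100 bases before the start, identity between 2 promoters had a median of 74.8% within Lce1 (55 pairs), 67.6% within Lce3 (15 pairs) and 51.4% between the families (66 pairs). A match of letters is a description of the sequence only.

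Lce1 proteins are small cysteine- and glycine-rich envelope precursors laid down late in cornification. Lce1a1, the member with the highest level per length in all 8 libraries, measured 206, 538, 353 and 96.4 CPM in cKO replicates 1 to 4 and 59.5, 107, 99.8 and 14.2 in WT replicates 1 to 4. Lce1f, the next highest by mean FPKM (reads scaled to gene length and library size, the authors' unit), measured 173, 378, 228 and 81.1 CPM in cKO and 52.0, 82.4, 93.7 and 13.7 in WT. In both genes cKO replicates 1 to 3 lay above all WT libraries and cKO replicate 4 lay inside the WT range. The fitted log2 fold change was 2.09 for Lce1a1 (SE 0.65, edgeR adjusted p = 0.134) and 1.83 for Lce1f (SE 0.59, adjusted p = 0.146).

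Lce1h, Lce1e and Lce1g were the 3 genes of the 35 whose genotypes did not overlap, with every cKO library higher; 5.26% of all tested genes had this pattern. Lce1h measured 49.3, 136, 87.4 and 27.8 CPM in cKO and 12.9, 22.7, 17.3 and 2.22 in WT. Lce1e measured 89.8, 210, 152 and 44.6 CPM in cKO and 23.4, 42.2, 37.3 and 5.30 in WT. Lce1g measured 75.7, 206, 131 and 35.6 CPM in cKO and 20.6, 33.0, 33.0 and 4.04 in WT. The gap between the lowest cKO library, replicate 4, and the highest WT library was narrow in all 3. Lce1h had a log2 fold change of 2.44 (SE 0.66, 95% confidence interval 0.95 to 3.94), the smallest edgeR p of the 35 genes (unadjusted 0.00481, adjusted 0.0973) and a DESeq2 adjusted p of 0.0225. Because the genotypes of these 3 genes did not overlap, their two-sided exact permutation p was fixed at 0.0286. That is the smallest that 4 against 4 libraries can give, and it adds nothing to the separation itself. In the other Lce1 genes the exact permutation p lay between 0.0571 and 0.2.

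Lce1a2, Lce1b, Lce1c and Lce1d lie together in the cluster and had like levels. Lce1a2 measured 114, 353, 244 and 59.2 CPM in cKO and 35.3, 60.1, 50.04 and 7.2 in WT. Lce1b measured 124, 354, 244 and 56.9 CPM in cKO and 40.5, 66.8, 52.0 and 7.28 in WT. In both, cKO replicate 4 lay just under WT replicate 2 and above the other 3 WT libraries. Lce1c measured 116, 376, 252 and 59.0 CPM in cKO and 40.3, 65.4, 54.6 and 6.77 in WT. Lce1d measured 110, 299, 201 and 52.3 CPM in cKO and 34.4, 59.1, 51.8 and 7.17 in WT. The order of the libraries was that of Lce1b in both genes. Lce1i, which lies beyond Lce1h in the cluster, measured 41.0, 156, 87.2 and 22.7 CPM in cKO and 13.9, 25.1, 22.2 and 1.74 in WT.

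Lce1l and Lce1m had the widest spread in cKO among the Lce1 genes. Lce1l measured 23.6, 133, 60.8 and 11.6 CPM in cKO and 10.5, 16.6, 11.9 and 1.74 in WT. Lce1m measured 19.1, 210, 142 and 8.78 CPM in cKO and 10.9, 20.4, 8.83 and 1.36 in WT. In Lce1m, cKO replicates 2 and 3 stood far above the rest, while cKO replicates 1 and 4 lay inside the WT range. Its log2 fold change of 3.20 (SE 1.05, edgeR adjusted p = 0.151, exact permutation p = 0.2) was 2.46 without cKO replicate 2.

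Across the 12 Lce1 genes, unadjusted p from edgeR lay between 0.00481 and 0.0154 and adjusted p between 0.0973 and 0.161. Replicates 1 to 3 of cKO were all above every WT library in 11 of the 12, whereas cKO replicate 4 lay within the WT range in 9. The highest cKO library exceeded the lowest by 4.66 times (Lce1f) to 24.0 times (Lce1m), and the highest WT library exceeded the lowest by 6.85 times (Lce1f) to 15 times (Lce1m). The median log2 fold change of the family was 1.91 without WT replicate 4, 1.78 without cKO replicate 2 and 2.58 without cKO replicate 4, and no fit that left out a library called an Lce1 gene. Reads of 50 bases cannot be assigned to 1 gene over 0% (Lce1m) to 27.1% (Lce1i) of an Lce1 transcript, and reads of 100 bases over at most 4.9% (Lce1e), by exact matches among GENCODE transcripts. Assignment among the 12 genes does not alter their sum, but reads dropped for matching more than 1 gene would be missing from it. The sources used here do not say how such reads were counted. The sum also leaves out Lce1j and Lce1k, with which some of the 12 share stretches. Summed Lce1 expression was 1141, 3349, 2182 and 556 CPM in cKO (mean 1807 ± 1228, SD, n = 4) and 354, 601, 533 and 72.8 in WT (390 ± 236, SD, n = 4), a ratio of means of 4.63.

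Several members kept similar shares of the family in each library, and others varied more. Lce1a1 made up 16.3% to 19.7% of the summed Lce1 FPKM, Lce1b 10.8% to 12.6% and Lce1d 9.47% to 10.4%. Lce1m differed more: it made up 5.15% and 5.35% in cKO replicates 2 and 3, and 1.29% to 2.77% in the other 6 libraries. Lce1f ran the other way, with 11.3% and 10.5% in cKO replicates 2 and 3 and 13.7% to 18.7% elsewhere. Lce1i made up 2.33% to 4.6% and Lce1l 2.21% to 4.25%. The share of Lce1h was 4.09% to 5.07% in cKO and 3.09% to 3.83% in WT. Per length, the mean of the highest member (Lce1a1, 259 FPKM) was 5.23 times that of the lowest (Lce1l, 49.5 FPKM).

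**Figure D2:**
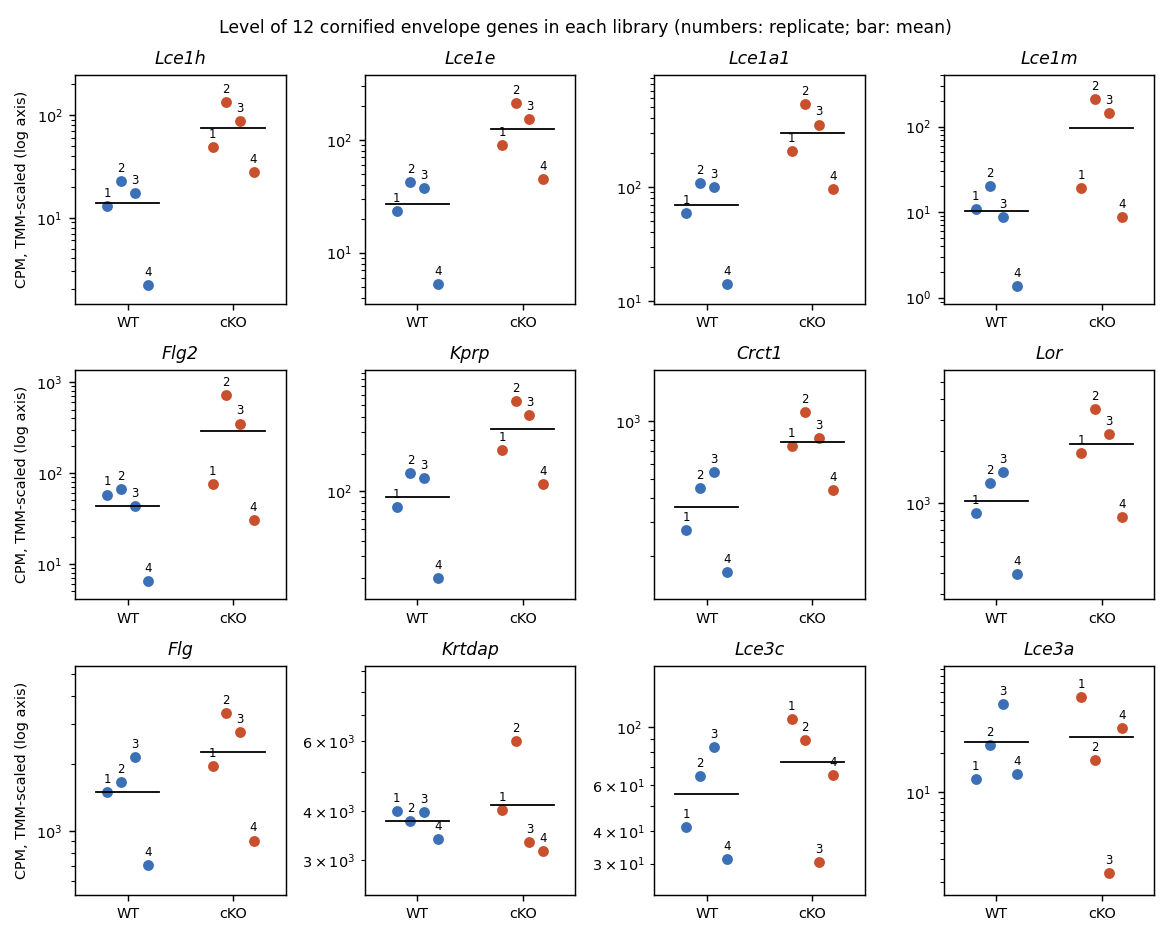
CPM (log axis) of 12 of the genes in each library, with the replicate number beside each point and a bar at the group mean. In the Lce1 genes cKO replicates 2 and 3 stand highest and WT replicate 4 lowest, whereas in Lce3c and Lce3a cKO replicate 3 is the lowest library of all 8.

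Lce3 genes, the LCE family tied to inflamed and injured skin, had fitted differences near 0, and the difference between the families was not itself tested. Lce3c, the most abundant by mean FPKM, measured 107, 89.0, 30.4 and 65.6 CPM in cKO and 41.5, 65.0, 83.6 and 31.2 in WT. Lce3f measured 119, 69.0, 21.2 and 65.6 CPM in cKO and 33.0, 56.5, 112 and 32.9 in WT. The genotypes overlapped in both, and the log2 fold changes were 0.40 (SE 0.40, edgeR adjusted p = 0.637) and 0.23 (SE 0.52, adjusted p = 0.862). The other 4, Lce3a, Lce3b, Lce3d and Lce3e, had log2 fold changes of -0.17 (Lce3d) to 0.35 (Lce3e), with standard errors of 0.48 to 0.77. None of the 6 had an unadjusted p below 0.05. The 95% confidence interval was widest at its upper end in Lce3a, where it reached 1.81, just under the 1.83 fitted for Lce1f. In transcripts of Lce3c to Lce3f, 24.1% to 43.0% of the 100-base stretches recur in another gene, mostly Lce3f or Lce3e, so the values of single members are less certain than their sum.

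The families also ordered the libraries differently. In cKO replicate 3 the Lce1 sum was 2182 CPM, the second highest of 8, and the Lce3 sum was 78.3 CPM, the lowest of 8. All 6 Lce3 genes were lower in cKO replicate 3 than in any WT library. In cKO replicate 1, 5 of the 6 Lce3 genes were higher than in any WT library, with a sum of 437 CPM. Summed Lce3 expression was 318 and 255 CPM in cKO replicates 2 and 4 and 158, 257, 411 and 138 CPM in WT, so the ratio of means was 1.13. The ratio of the Lce1 sum to the Lce3 sum was 2.61, 10.5, 27.9 and 2.18 in cKO and 2.24, 2.34, 1.30 and 0.527 in WT. Replicates 2 and 3 of cKO stood far above all WT libraries in this ratio, replicate 1 just above the highest of them, and replicate 4 within the WT range. Within the family, Lce3a and Lce3b were furthest behind in cKO replicate 3, at 2.32 and 1.09 CPM, where they made up 3.04% and 1.44% of the summed Lce3 FPKM against 5.74% to 12.9% and 4.34% to 9.31% in the other 7 libraries.

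Filaggrin-type proteins are large, repeat-rich granular proteins that bind keratin filaments and give rise to natural moisturizing factor. Flg2 measured 75.5, 719, 352 and 30.1 CPM in cKO and 58.1, 66.2, 43.0 and 6.45 in WT. Replicates 2 and 3 of cKO stood far above all other libraries and replicate 4 lay below 3 of the WT libraries. Its log2 fold change was 2.76 (SE 0.98, edgeR unadjusted p = 0.0196, adjusted p = 0.181, exact permutation p = 0.2), and 1.82 without cKO replicate 2. Filaggrin itself (Flg) measured 1949, 3373, 2771 and 908 CPM in cKO and 1494, 1664, 2143 and 703 in WT, with a log2 fold change of 0.58 (SE 0.42, adjusted p = 0.495). Rptn, encoding repetin, measured 2949, 2892, 1679 and 1767 CPM in cKO and 1717, 2094, 3720 and 1264 in WT (log2 fold change 0.08, SE 0.33, adjusted p = 0.931). Hrnr, encoding hornerin, had a log2 fold change of 0.81 (SE 0.50, adjusted p = 0.428). Flg, Rptn and Hrnr all had overlapping genotypes. The reads of Flg overlap a pseudogene, Rplp0-ps1, and 67.3% of the 100-base stretches of the Hrnr transcript recur within it.

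Of the envelope precursors, loricrin (Lor) forms the bulk of the mature envelope. Lor measured 1940, 3484, 2499 and 834 CPM in cKO and 883, 1313, 1514 and 392 in WT. Replicates 1 to 3 of cKO were above all WT libraries, and the log2 fold change was 1.09 (SE 0.48, edgeR unadjusted p = 0.0464, adjusted p = 0.259). Kprp, a keratinocyte proline-rich protein, measured 215, 536, 410 and 115 CPM in cKO and 74.7, 141, 128 and 19.99 in WT (log2 fold change 1.81, SE 0.62, adjusted p = 0.162). Crct1, a cysteine-rich C-terminal protein gene of the same cluster, measured 742, 1107, 814 and 438 CPM in cKO and 273, 452, 542 and 166 in WT (log2 fold change 1.11, SE 0.38, adjusted p = 0.165, DESeq2 adjusted p = 0.04). Kprp and Crct1 had the library order of the Lce1 genes in cKO, with replicate 2 highest and replicate 4 lowest and inside the WT range. Cnfn, encoding cornifelin, measured 790, 758, 420 and 463 CPM in cKO and 471, 642, 961 and 622 in WT, with fully overlapping genotypes and a log2 fold change of -0.15 (SE 0.27, adjusted p = 0.816). Involucrin (Ivl), an early envelope scaffold, measured 631, 972, 746 and 345 CPM in cKO and 513, 505, 532 and 330 in WT (log2 fold change 0.52, SE 0.28, adjusted p = 0.369).

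Summed Lce1 expression per length was set against Lor in each library. The ratio of the Lce1 FPKM sum to Lor FPKM was 1.46, 2.37, 2.15 and 1.66 in cKO (1.91 ± 0.424, SD, n = 4) and 0.997, 1.14, 0.875 and 0.462 in WT (0.868 ± 0.292, SD, n = 4). Every cKO library, replicate 4 included, lay above every WT library in this ratio. The ratio was not among the planned results, is a score built from members and carries no test. In cKO, Lor and the Lce1 sum ranked the libraries in the same order.

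Both cornification proteases had overlapping genotypes. Casp14, encoding the caspase that takes part in filaggrin breakdown, measured 1177, 1799, 1630 and 409 CPM in cKO and 1381, 1911, 1684 and 1183 in WT (log2 fold change -0.30, SE 0.38, edgeR adjusted p = 0.731). Asprv1, encoding the retroviral-like aspartic protease that cleaves profilaggrin, measured 2825, 6019, 4126 and 1404 CPM in cKO and 2262, 3162, 4054 and 1681 in WT (log2 fold change 0.37, SE 0.42, adjusted p = 0.688). In cKO the order of the libraries was the same in both, with replicate 2 highest and replicate 4 lowest, as in the Lce1 genes.

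Of the secreted and adhesive proteins, Krtdap, encoding a keratinocyte differentiation-associated protein, was the most abundant of the 35 genes per length, at a mean of 8506 FPKM. It measured 4025, 6012, 3328 and 3166 CPM in cKO and 3986, 3772, 3963 and 3393 in WT (log2 fold change 0.13, SE 0.20, edgeR adjusted p = 0.781). Dmkn, encoding dermokine, measured 3656, 7355, 4749 and 2812 CPM in cKO and 4006, 4887, 5168 and 3610 in WT (log2 fold change 0.07, SE 0.27, adjusted p = 0.922). In both, cKO replicate 2 was the highest library of all 8 and cKO replicate 4 the lowest. Cdsn, the corneodesmosome adhesion gene, and Sbsn, encoding suprabasin, had log2 fold changes of 0.51 (SE 0.36) and 0.40 (SE 0.26), neither with an unadjusted p below 0.05. Sbsn overlaps Gapdhs, and Lce1a1 overlaps the long noncoding RNA gene Gm35639, whose reads cannot be told apart without the strand setting.

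The calmodulin-like genes were abundant and similar between genotypes. Calm4, whose calcium-binding product is also called Scarf, measured 8258, 11400, 8004 and 4004 CPM in cKO and 6616, 7323, 8171 and 4981 in WT (log2 fold change 0.23, SE 0.29, edgeR adjusted p = 0.725). Calml3, encoding another calmodulin-like protein, measured 1102, 935, 992 and 616 CPM in cKO and 876, 1030, 1237 and 743 in WT (log2 fold change -0.09, SE 0.21, adjusted p = 0.859). The 95% confidence interval of Calml3 was -0.56 to 0.37.

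**Figure D3:**
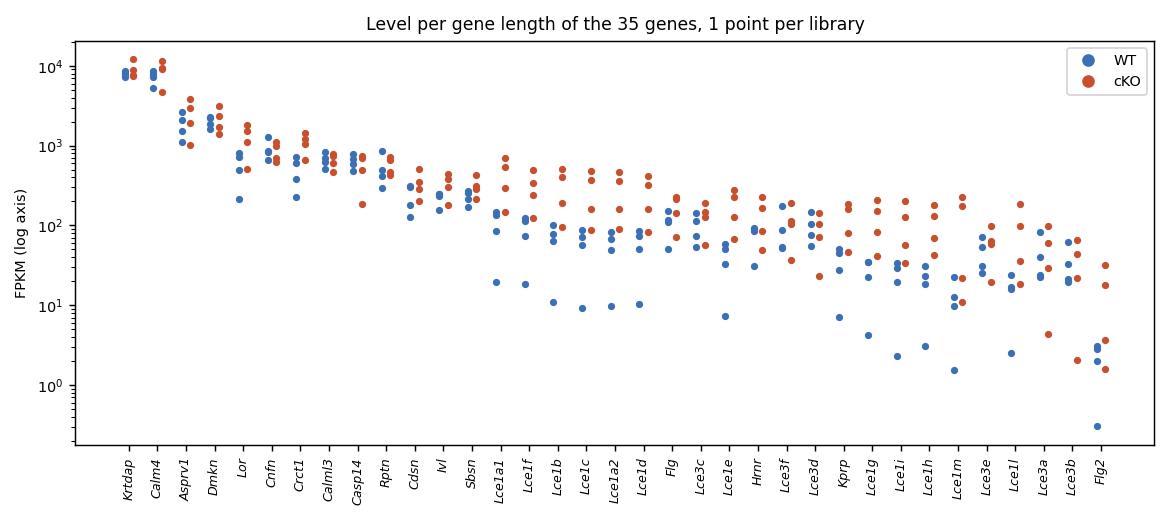
FPKM (log axis) of the 35 genes, ordered by their mean, with 1 point per library. Krtdap and Calm4 have the highest means (8506 and 7967 FPKM), the Lce1 genes lie from 49.5 to 259 FPKM, and WT replicate 4 is the low point of each Lce1 gene.

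Levels of different genes were compared per length. Krtdap and Calm4 were followed by Asprv1 (2139 FPKM) and Dmkn (2076), then by Lor (899), Cnfn (878) and Crct1 (788). The ranges of Lor, Cnfn and Crct1 over the 8 libraries overlapped. The most abundant Lce1 gene, Lce1a1, ranked 14 of 35, and the most abundant Lce3 gene, Lce3c, ranked 21. Flg2 ranked 35, at 7.97 FPKM, but its deposited FPKM imply a length of 20806 bases, against 7011 for the longest GENCODE coding transcript. Likewise Sbsn has an implied length of 8567 bases against 2221.

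To contrast early with late differentiation, log2 CPM of each gene had its 8-library mean taken off and was averaged over 5 early genes (Ivl, Krtdap, Sbsn, Dmkn and Calml3) and 24 late genes, 12 of them Lce1. The 6 Lce3 genes were kept out of both averages. The early average was 0.08, 0.62, 0.13 and -0.51 in cKO and -0.11, 0.04, 0.16 and -0.41 in WT, a difference in means of 0.16. The late average was 0.49, 1.83, 1.22 and -0.51 in cKO and -0.62, -0.02, -0.08 and -2.30 in WT, a difference of 1.51. Late minus early was 0.41, 1.21, 1.09 and 0.00 in cKO (mean 0.68 ± 0.57, SD, n = 4) and -0.51, -0.06, -0.25 and -1.89 in WT (-0.68 ± 0.83, SD, n = 4). The lowest cKO library, replicate 4, lay just above the highest WT library, replicate 2. With Lce1 left out of the late genes the genotypes overlapped. There, late minus early was -0.22 in cKO replicate 4, below 0.03 in WT replicate 2 and 0.07 in WT replicate 3. For the 12 late genes outside Lce1, the difference between genotypes in late minus early was 0.52, and for Lce1 minus early it was 2.19. Without WT replicate 4 these became 0.31 and 1.59. For Lce3 minus early the difference was -0.27, and 0.40 without cKO replicate 3.

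**Figure D4:**
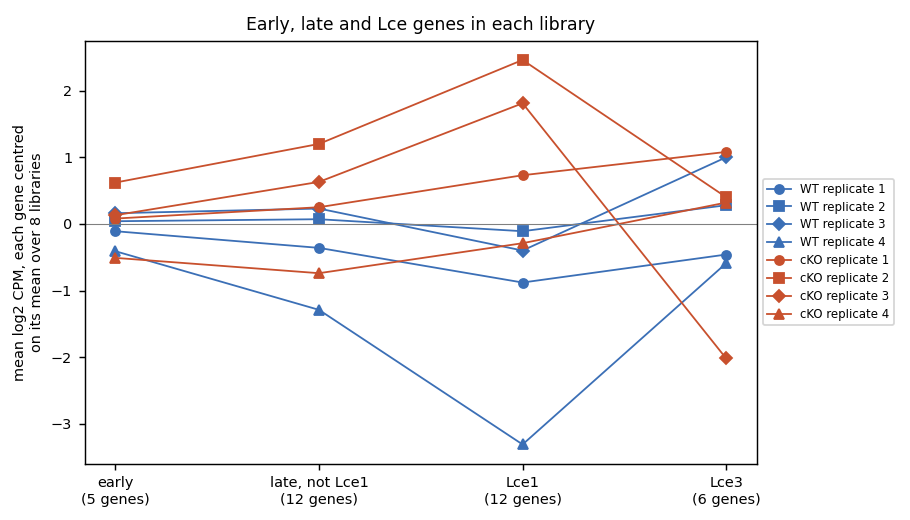
Mean centred log2 CPM of the early genes, the late genes outside Lce1, the Lce1 genes and the Lce3 genes, with 1 line per library. The libraries lie close together in the early genes, fan out in Lce1 from -3.31 (WT replicate 4) to 2.46 (cKO replicate 2), and take another order in Lce3, where cKO replicate 3 is lowest at -2.02.

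Levels of other genes of the pathway were read from 4 lists. Of 14 early (spinous) genes, Endou, encoding a poly(U)-specific endoribonuclease, fell, by 0.89 on the log2 scale (SE 0.15, edgeR adjusted p = 0.0337), and 0 rose. The abundant spinous keratins Krt10 and Krt1 had log2 fold changes of 0.02 (SE 0.22) and -0.22 (SE 0.18). Of 15 genes for crosslinking and filaggrin processing, Tgm3, a transglutaminase that links envelope precursors, fell, by 1.11 (SE 0.20, adjusted p = 0.0363), and 0 rose. The processing proteases Klk7 and Blmh had log2 fold changes of 0.27 and 0.02. Of 13 tested genes for other envelope proteins, Sprr4, a small proline-rich protein gene, rose, by 2.85 (SE 0.52, adjusted p = 0.0362), and 0 fell. Sprr1b and Sprr1a, from the same family, had log2 fold changes of -0.73 (SE 0.36) and -0.53 (SE 0.24). At an unadjusted p below 0.05, 1 spinous gene was higher and 5 lower, 2 crosslinking and processing genes were higher and 5 lower, and 4 other envelope genes were higher and 0 lower, against 9.87% of all tested genes that were higher and 8.71% that were lower. Of 18 transcription factors of terminal differentiation 0 passed in edgeR, with 0 higher and 3 lower at that unadjusted p. Klf4 and Cebpa had log2 fold changes of 0.03 and 0.00. At the adjusted threshold, 0.671% of all tested genes were called as higher in cKO and 0.65% as lower.

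Leaving out 1 library ended most of those 3 calls, while the log2 fold changes lay from -0.98 to -0.79 for Endou, from -1.28 to -0.96 for Tgm3 and from 2.55 to 3.36 for Sprr4. Endou passed only in the fit without cKO replicate 2 among the 8 fits that left out 1 library, and Tgm3 only in the fits without cKO replicate 2 or 4. Sprr4 passed without cKO replicate 2, cKO replicate 4 or WT replicate 2, and not in the other 5. Their values were separate between genotypes: Sprr4 measured 65.6, 83.6, 74.7 and 58.6 CPM in cKO and 13.4, 18.6, 4.17 and 3.16 in WT, and Tgm3 measured 225, 154, 178 and 115 CPM in cKO and 350, 432, 293 and 370 in WT. Unlike the Lce1 genes, Sprr4 was about as high in cKO replicate 4 as in the other cKO libraries.

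In the mouse epidermal differentiation cluster, taken in RefSeq order from Lor to Rptn, 26 of 49 genes belong to the 35 and 45 were tested. From Lce6a to Lce1l, 15 of 15 tested genes had positive log2 fold changes, from 1.81 to 2.85. These include Lce6a, Lce1j and Lce1k, which are outside the 35 and were singled out after their values were seen, at 2.31, 2.85 and 2.48 (adjusted p = 0.116, 0.0987 and 0.118). The next stretch, Lce3a to Lce3f, had 4 of 6 positive, and the stretch on the other side, Sprr2a1 to Sprr4, had 3 of 14 positive. Beyond Lce3f, the stretch from Crct1 to Rptn had 7 of 7 positive, from 0.08 to 3.20. Lce1m, which lies beyond the Lce3 genes and apart from the other Lce1 genes, had the largest fold change of the Lce1 genes. The ends of these stretches were set by hand. Over the whole cluster 32 of the 45 tested genes were positive, and 8 of the 19 tested that are outside the 35. Among all 14004 genes tested, 7265 were positive. Of the 45 tested genes, Sprr4 alone passed the test, against 1.32% of all genes tested.

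**Figure D5:**
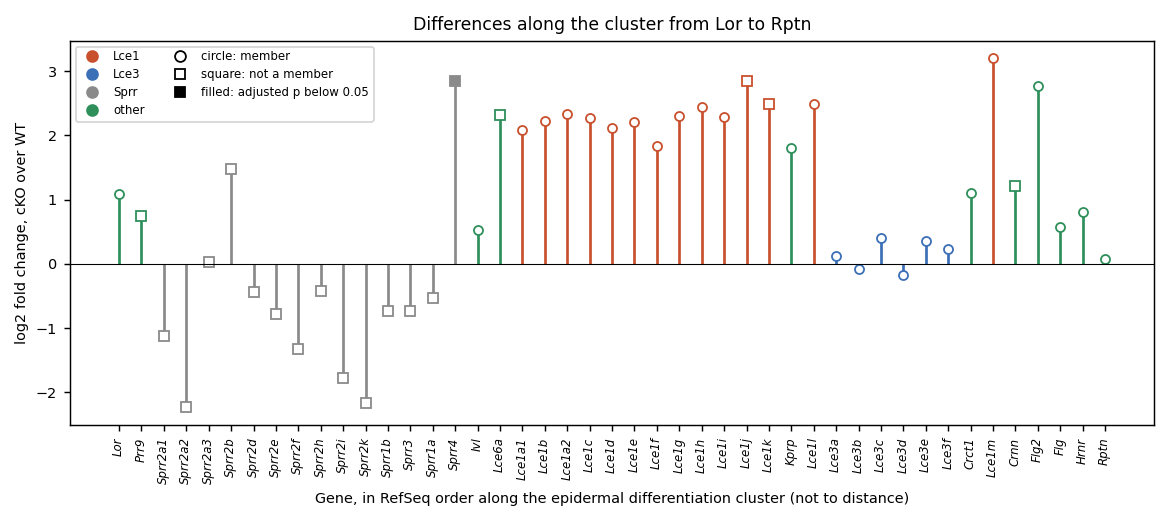
Fitted log2 fold change, cKO over WT, of the tested genes of the cluster from Lor to Rptn, in RefSeq order and not to distance. The 15 genes from Lce6a to Lce1l lie between 1.81 and 2.85, the 6 Lce3 genes between -0.17 and 0.40, and the filled square is Sprr4, the only gene with an adjusted p below 0.05.

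Markers of other cells were read beside these results. Summed sebocyte markers (6 genes) ranged from 777 to 2830 CPM in cKO and from 573 to 1040 in WT, and 1 of 5 tested was called higher. Summed follicle markers (7 genes, including Krt17, which is also a stress keratin) ranged from 4050 to 6110 CPM in cKO and from 2860 to 3200 in WT. These ranges were without overlap, and 2 of 7 markers were called higher. Summed melanocyte markers (5 genes) ranged from 51.2 to 110 CPM in cKO and from 30.2 to 48.9 in WT, also without overlap, and none passed in edgeR, although all 5 were higher at an unadjusted p below 0.05. Neutrophil markers (4 genes in the table, including S100a8, which inflamed keratinocytes also express) summed to 2960, 798, 956 and 3820 CPM in cKO and 2140, 1770, 6060 and 7480 in WT, and 1 was called lower. Of all tested genes, 0.671% were called higher and 0.65% lower, and 9.87% were higher at an unadjusted p below 0.05. Single genes that were higher in cKO without overlap made up 5.26%. Replicate 4 had the highest neutrophil sum and the lowest Lce1 sum in both genotypes, and replicate 2 the lowest neutrophil sum and the highest Lce1 sum. In contrast, WT replicate 3 was above WT replicate 1 in both sums (6060 and 533 CPM against 2140 and 354). No marker of these lists was at 0 in all libraries, and the part of these cells in the results was not tested.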

How the data were processed

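RNA-seq of imiquimod-treated mouse epidermis (4 cKO and 4 WT libraries, VAHTS Universal V6 kit on total RNA, per the labels' protocols) was deposited by the authors as raw read counts by gene symbol and as FPKM. HISAT2 and HTSeq are named in the submitters' processing notes. For versions, build, annotation and strand setting: not given in the sources used here. The deposited FPKM were the same reads as the counts: the implied gene length was equal across libraries within a relative tolerance of 1e-04 for 20863 of 20863 genes. Groups came from the sample titles.

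Counts were fitted with edgeR 4.0.16 in R 4.3.3 (filterByExpr, TMM, quasi-likelihood test, Benjamini-Hochberg adjustment over all 14004 genes tested, called at an adjusted p below 0.05), with no covariate, since the labels give 1 batch. The procedure was tested on simulated data in which genes varied independently of each other, unlike the Lce1 genes here. CPM are TMM-scaled, and log2 CPM used a prior count of 1. Alternatives were DESeq2 1.42.0, limma 3.58.1 (voom, and log2(FPKM + 1) or log2(FPKM + 0.1) at a mean FPKM of at least 0.5), other scalings and filters, the replicate number as a block, and leaving out each library. Values in every library are given for genes with an unadjusted p below 0.05 and for the 2 highest by mean FPKM of each role group, and for Ivl, which was added after its values were seen. From each pathway list the called genes and the 2 highest by mean CPM that were not called are named. Promoters are from RefSeq (GRCm38.p6). Shared stretches were counted in the longest coding transcript of each gene in GENCODE, and the Flg transcript there (1488 bases, against an implied 13683) was too short to use. The 35 genes and the gene lists were chosen with earlier results of these data known. At 37158621 to 38865722 reads per library, spread between libraries and not counting error sets the precision.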

Additional observations from a re-analysis of the deposited data

Results flagged for a closer look

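WT replicate 4 lay apart from the other 3 WT libraries in Hrnr, at 354 CPM against 978 for the nearest, and in Ivl, at 330 CPM against 505 for the nearest. In each, the gap took up most of the range of the WT group (0.910 and 0.866 of it). In all, 72 groups of 4 were examined, and chance gives about 1 such gap in 20 groups.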

How the results depend on the processing

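Samples of the 2 genotypes share only a replicate number: the deviations of same-numbered libraries correlated at -0.09 for number 1, 0.12 for 2, 0.10 for 3 and 0.19 for 4, and 5 of 8 libraries correlated best with the library of their own number. With the replicate number as a block, 14 of the 35 genes were called higher: 11 Lce1 genes (not Lce1m), Lor, Kprp and Crct1. That fit called 0.885% of all tested genes as higher and 216 genes in either direction, and Endou and Tgm3 were not called. DESeq2 called 6 of the 35 as higher, with 4.1% of its genes called higher and 1266 genes called in either direction. Without a low-count filter 349 genes were called and 0 of the 35. RLE scaling, library-size scaling, the CPM filter, limma-voom, limma on FPKM and the 8 fits that left out 1 library each called 0 of the 35. Leaving out 1 library gave 8 (without WT replicate 3) to 506 (without cKO replicate 2) genes called in all, against 185 with all libraries, so that the count of all genes rests on single libraries.

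All 12 Lce1 genes had positive fold changes in every one of these fits. The difference between genotypes in Lce3 minus early lay between -0.65 and 0.40 when 1 library was left out.

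Of 595 refitted values of the 35 genes, 549 had the direction and side of the threshold of the reported one, 20 values of 15 genes passed the threshold only in the refit (with the block or DESeq2), and 26 values of 9 genes near 0 had the other sign. Leaving out 1 library moved the log2 fold change of Rptn from -0.11 to 0.46, Cnfn from -0.3 to 0.07, Lce3a from -0.5 to 0.68, Lce3b from -0.63 to 0.4, Lce3d from -0.58 to 0.16, Lce3f from -0.17 to 0.75, Krtdap from -0.09 to 0.24, Dmkn from -0.22 to 0.25 and Calml3 from -0.2 to 0.06. The same fits gave -0.12 to 0.17 for Krt10, -0.26 to 0.14 for Blmh, -0.06 to 0.18 for Klf4 and -0.14 to 0.11 for Cebpa. With the replicate block, Lce3a was at -0.02, Dmkn at -0.01 and Blmh at -0.04. By limma-voom Lce3a was at -0.37, Dmkn at -0.01 and Blmh at -0.04, and by limma on log2(FPKM + 1) and log2(FPKM + 0.1) Lce3a was at -0.25 and -0.3. Cebpa was at 0.05 with library-size scaling, 0.01 with the CPM filter and 0.04 in both FPKM fits. The cause was not tested.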

Other observations

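Krt77, a suprabasal keratin outside the 35 genes that was singled out after its values were seen, measured 26.1, 1349, 189 and 28.7 CPM in cKO and 24.8, 23.6, 16.7 and 5.65 in WT. As in Lce1m and Flg2, cKO replicates 2 and 3 were far above the other 6 libraries. Its log2 fold change of 4.49 (SE 1.28, edgeR adjusted p = 0.109) was 2.21 without cKO replicate 2. Crnn, encoding cornulin, a filaggrin-type protein, also outside the list, measured 20.8, 2.46, 9.67 and 8.45 CPM in cKO and 3.80, 7.13, 4.80 and 2.17 in WT, with its highest value in cKO replicate 1 and its second lowest in cKO replicate 2.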
